A study of Homo sapiens with 20 samples.

Results

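The 46 genes described here encode RNA-binding proteins that package nuclear RNA and choose splice sites: the hnRNP family, the SR proteins with their TRA2 relatives, and further splicing regulators. They were chosen by name, as a list of 46 symbols, with earlier results of these data known. All 46 were found among the 36601 genes of the deposited table. Counts and medians of members set beside those of all genes are therefore descriptions. All 46 also passed the filter on low counts, which left 12149 genes for testing. The cells were MDA-MB-231, a triple-negative breast cancer line of human origin, in 5 groups of 4 samples. Untreated cells were grown at 37 °C with neither particles nor laser. Cells of the group named nanoparticles alone were kept for 4 h with biomimetic photothermal particles at 0.1 mg/ml and received no laser. The 3 laser groups had the same particles for 4 h and then 10 min of 808 nm light, with the temperature held at 46, 50 or 54 °C. Every laser group therefore also carried particles, and laser light without particles was not analysed here: the effects of light and of heat cannot be told apart. Each sample pooled 2 wells of 1 cell line, and the labels do not say that replicates were separate cultures, and every p-value measures only how far these samples spread. Irradiated cells were washed before RNA was taken, and no recovery time is given in the sources used here.

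In human cells hnRNP proteins coat nascent transcripts and often block nearby splice sites, while SR proteins bind exonic enhancers and recruit the spliceosome. Heat shock halts much splicing: SRSF10 loses its phosphates and turns into a splicing repressor, and SRSF1, SRSF7 and SRSF9 gather with satellite RNA in nuclear stress bodies. Many genes of these families control their own mRNA through alternatively spliced segments that lead to decay. Counts from the 3′ ends of mRNAs give the level of a gene and do not show its isoforms.

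The libraries held 2401180 to 7710977 counts, and the means of groups lay between 2872173 (46 °C) and 6769582 (54 °C). Of 8 markers of mesenchymal breast cancer cells, 7 were detected, VIM and CD44 among them, while SPARC held 83 counts in all. Of 8 luminal breast markers, ESR1, PGR and FOXA1 held 22, 9 and 2 counts over all samples and ERBB3 held 43, while KRT8, KRT18, GATA3 and EPCAM were detected, with 10254, 21152, 1130 and 526 counts. The 6 macrophage and 4 blood markers were near 0 in every group, and AIF1, HBB and ALAS2 were at 0. HSPA1A, the inducible chaperone used as a check on heating, averaged 28.6 ± 7.94 CPM with nanoparticles alone and 1760.4 ± 325, 21 ± 8.9 and 23.4 ± 5.23 CPM under the laser at 46, 50 and 54 °C (SD, n = 4 each). CPM are here counts per library scaled by TMM to a common size. HSPA1B, DNAJB1 and HSPH1 rose at 46 °C as well, by 4.69, 3.62 and 1.91 on the log2 scale, and none of the 4 check genes was called at 50 or 54 °C against nanoparticles alone. Nuclear RNAs taken as signs of RNA quality moved too. MALAT1 rose by 1.09 at 46 °C, 1.25 at 50 °C and 1.42 at 54 °C against nanoparticles alone, and NEAT1 by 1.20, 1.44 and 2.04 at the same temperatures. KCNQ1OT1 rose by 2.10 at 46 °C and was not called at 50 or 54 °C. Their part in the results below was not tested. In bulk RNA, fewer cells and less RNA per cell cannot be told apart.

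Promoters are shown for 5 members called at 50 °C against nanoparticles alone, picked after their values were seen, so that 4 that fell can be read beside RBM5, which rose. RefSeq windows on GRCh38.p14 were found for 39 of the 46 members, each reaching from 250 bases before to 50 bases after a transcript start. The 250 bases before the start are printed from 5′ to 3′, in lower case, with matches in capitals. Capitals mark GAANNTTC or TTCNNGAA (paired heat shock element units), CACGTG (the E-box bound by MYC and MAX) and CCAAT, each searched on both strands, so that ATTGG marks CCAAT on the other strand.
HNRNPDL (chr4:82430463-82430712, minus strand): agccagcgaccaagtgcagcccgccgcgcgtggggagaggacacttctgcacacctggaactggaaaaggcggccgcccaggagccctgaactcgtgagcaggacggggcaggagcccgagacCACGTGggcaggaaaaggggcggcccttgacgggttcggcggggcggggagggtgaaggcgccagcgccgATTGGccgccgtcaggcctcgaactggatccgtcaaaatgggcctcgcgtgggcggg
HNRNPD (chr4:82373992-82374241, minus strand): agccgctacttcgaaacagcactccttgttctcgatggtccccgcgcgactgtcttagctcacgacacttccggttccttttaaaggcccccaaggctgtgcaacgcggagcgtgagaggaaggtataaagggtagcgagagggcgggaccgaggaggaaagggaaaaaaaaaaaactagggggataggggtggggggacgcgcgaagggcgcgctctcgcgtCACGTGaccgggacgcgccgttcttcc
HNRNPA2B1 (chr7:26200747-26200996, minus strand): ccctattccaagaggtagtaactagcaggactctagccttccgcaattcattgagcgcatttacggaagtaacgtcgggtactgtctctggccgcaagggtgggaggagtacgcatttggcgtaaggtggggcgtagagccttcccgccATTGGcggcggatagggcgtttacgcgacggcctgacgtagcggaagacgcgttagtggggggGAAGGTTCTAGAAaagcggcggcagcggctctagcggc
RBM25 (chr14:73058284-73058533, plus strand): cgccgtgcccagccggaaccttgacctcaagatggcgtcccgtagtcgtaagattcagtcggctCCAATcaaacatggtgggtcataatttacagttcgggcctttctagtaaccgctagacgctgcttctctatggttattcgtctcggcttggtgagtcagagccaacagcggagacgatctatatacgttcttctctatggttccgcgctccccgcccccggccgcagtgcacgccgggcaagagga
RBM5 (chr3:50088669-50088918, plus strand): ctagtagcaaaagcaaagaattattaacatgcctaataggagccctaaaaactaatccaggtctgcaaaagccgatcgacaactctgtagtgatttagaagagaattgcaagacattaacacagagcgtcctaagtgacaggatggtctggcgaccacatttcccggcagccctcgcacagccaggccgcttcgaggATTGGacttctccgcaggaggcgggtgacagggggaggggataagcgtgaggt

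HNRNPDL is shown with the farther upstream of its 2 RefSeq starts, and both of its windows hold a CACGTG. Its neighbour HNRNPD lies in the same orientation on chromosome 4 and holds CACGTG 27 bases before its start. CACGTG was found for 9 of the 39 members with a window (23.1%), against 12.6% of tested genes and 8.77% of all genes in the reference table. CCAAT was found for 24 members (61.5%), against 43.5% of tested genes and 39.7% of all genes. HNRNPA2B1 carried GAANNTTC and TTCNNGAA in overlap, 38 and 33 bases before its start, forming 3 alternating units, GAA, TTC and GAA, each set 2 bases from the next. That 3-unit form was present for 1 of the 39 members, 0.481% of tested genes and 0.608% of all genes. GAANNTTC alone was found for 3 members (7.69%; 6.46% of tested and 8.21% of all genes) and TTCNNGAA for 1 (2.56%; 8.21% of tested and 9.46% of all genes). HNRNPA2B1, the member with the 3-unit form, which was searched after the data had been seen, was not called at 46 °C against nanoparticles alone. Its log2 fold change there was 0.077 ± 0.12 (adjusted p = 0.894). Whether the motif has a part in its level was not tested. The window of TARDBP, which also fell at 50 °C, held none of these motifs. These matches describe letters in a window only.

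Heating to 50 °C was compared with nanoparticles alone to ask what the laser did to these mRNAs at an intermediate temperature. Of the 46 members, 8 fell and 1 rose, and 37 did not pass the test. The 8 that fell were HNRNPDL, HNRNPD, HNRNPA2B1, HNRNPA3, SYNCRIP, HNRNPH3, TARDBP and RBM25, and the 1 that rose was RBM5. Calls were made at an adjusted p under 0.05 with edgeR's quasi-likelihood test and Benjamini-Hochberg adjustment over all tested genes, which called 0.691% of genes lower and 0.527% higher; where no other tool or scaling is named, calls are by this test. The samples of both groups did not overlap, lower at 50 °C, for 15 members, where 4.13% of tested genes behaved so, and higher for 3 members, where 4.2% did. The median log2 fold change of the members was −0.14, beside 0.018 for all tested genes. Just outside the threshold stood HNRNPH2 (adjusted p = 0.0523), and just inside it HNRNPH3 (adjusted p = 0.0498).

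**Figure D1:**
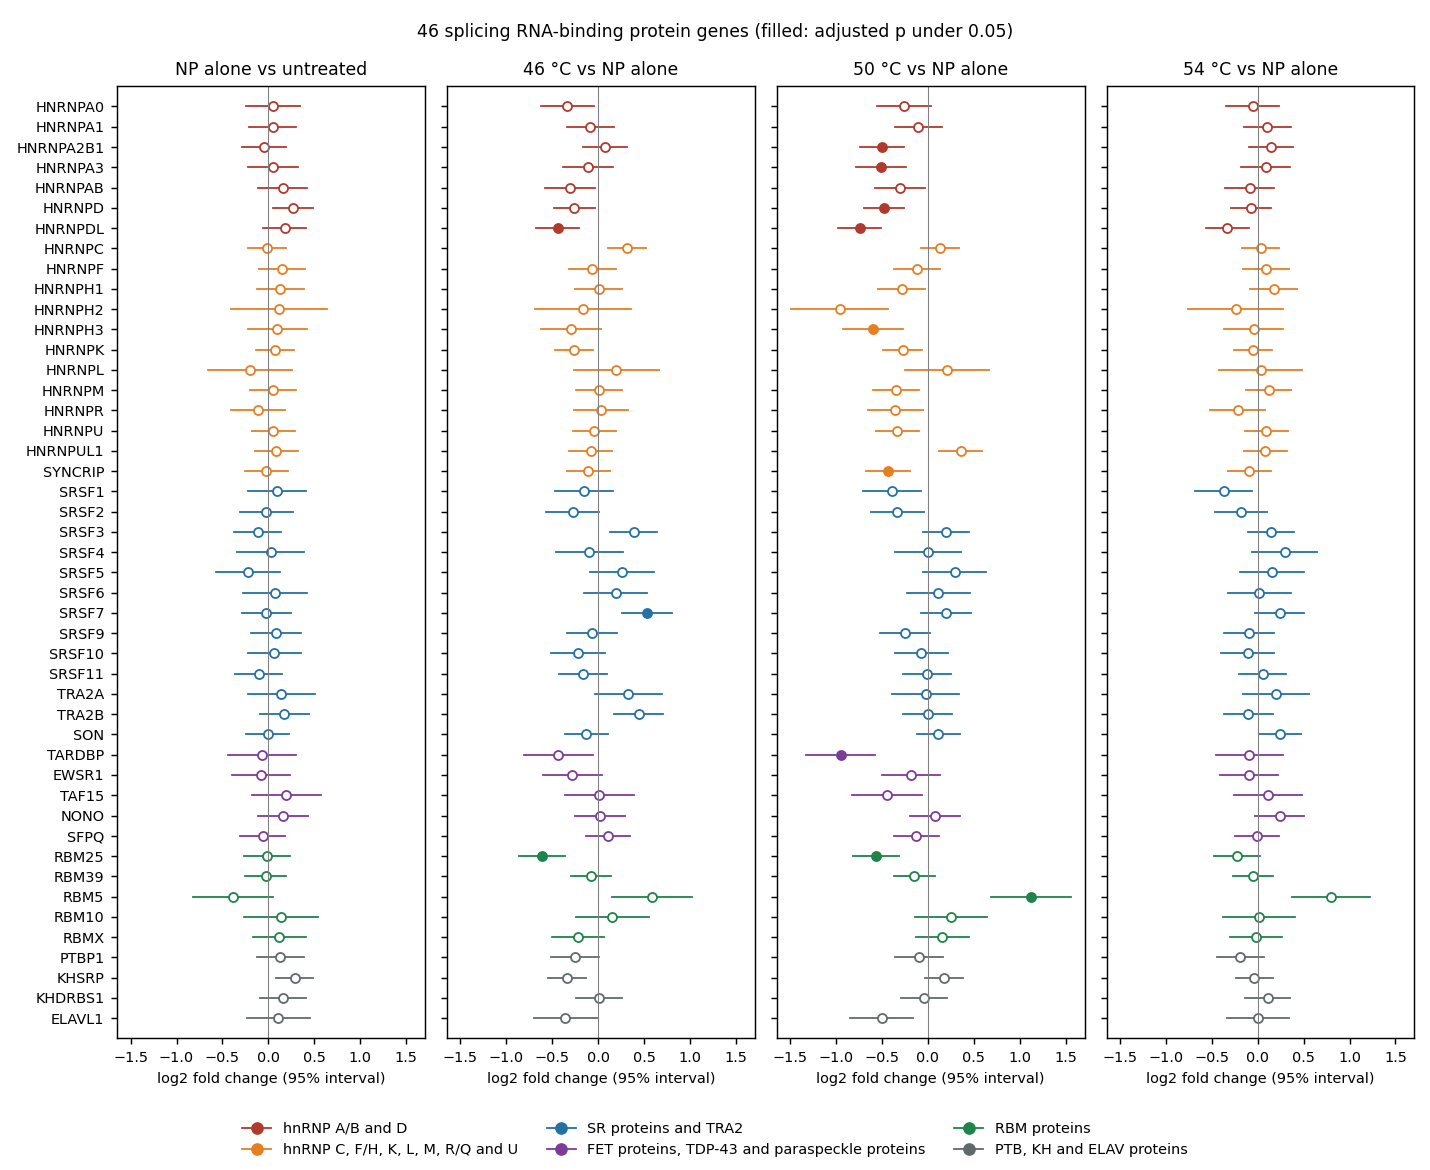
Log2 fold change (horizontal axis) of each of the 46 members (rows, grouped and coloured by role) in 4 comparisons, with 95% intervals from the fit and filled points for an adjusted p under 0.05. At 50 °C the filled points are 8 on the lower side and RBM5 on the higher side; no point is filled for nanoparticles alone against untreated cells or at 54 °C.

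At 46 °C, set against nanoparticles alone, RBM25 and HNRNPDL fell and SRSF7 rose, 3 of 46 members. Over all tested genes 0.346% were called lower and 0.617% higher in this comparison. The members' median was −0.083, beside 0.011 for all tested genes. With scaling by library totals, 1 member rose and 1 fell at 46 °C. At 54 °C against nanoparticles alone no member was called by edgeR's quasi-likelihood test. An unadjusted p under 0.05 was found for 4 of 46 members (8.7%), beside 5.75% of all tested genes. Among all tested genes 0.0494% were called lower and 0.0741% higher there. DESeq2 called 1 member at 54 °C, RBM5. The 3 members with the smallest p were RBM5, at 0.80 ± 0.21 (adjusted p = 0.165), HNRNPDL, at −0.33 ± 0.12 (adjusted p = 0.531), and SRSF1, at −0.37 ± 0.16 (adjusted p = 0.754). The members' median was 0.0045 at 54 °C, beside 0.0084 for all tested genes.

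Between the laser temperatures, KHSRP and HNRNPUL1 were higher and HNRNPA2B1 was lower at 50 °C than at 46 °C, where 0.584% of tested genes were called higher and 0.609% lower. With scaling by library totals in place of TMM, the median of all tested genes moved to −0.18 in that comparison (and to −0.10 at 50 °C against nanoparticles alone), and 1 member was called higher and 15 lower, with 3.46% of all tested genes called. At 54 °C, HNRNPA2B1, TARDBP and HNRNPA3 were higher than at 50 °C and no member was lower. Of all tested genes 0.0576% were called higher and 0.14% lower in that step. TRA2B was lower at 54 °C than at 46 °C, the 1 member called there, against 0.395% of tested genes called lower and 0.239% higher. A test of any difference among the 5 groups called 9 members, against 2.4% of tested genes: HNRNPDL, RBM25, TARDBP, HNRNPA2B1, KHSRP, RBM5, TRA2B, HNRNPD and HNRNPA3. Comparisons that share a group share its 4 samples, so their calls are not independent of each other. By group mean, 22 of the 46 members had their lowest level at 50 °C, 10 at 46 °C, 8 in untreated cells, 6 with nanoparticles alone and 0 at 54 °C. This count was not made for all tested genes, so whether it is particular to the members is not known.

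**Figure D2:**
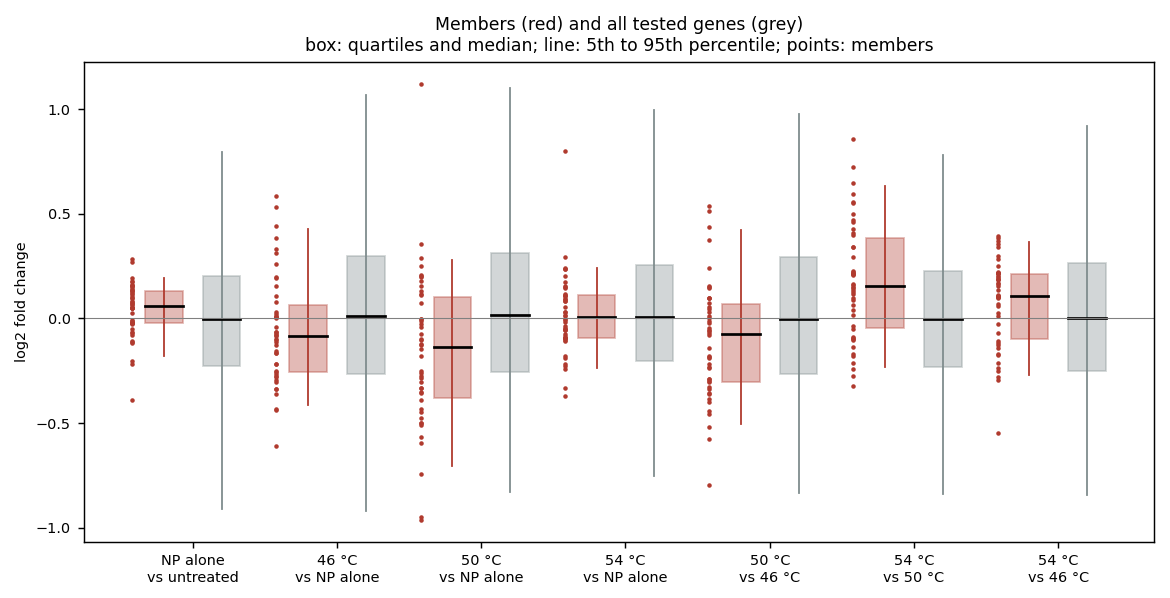
Log2 fold change (vertical axis) of the 46 members (red points and boxes) and of all 12149 tested genes (grey boxes) in 7 comparisons, with boxes for quartiles and median and lines from the 5th to the 95th percentile. The members' median is −0.14 at 50 °C against nanoparticles alone and 0.16 at 54 °C against 50 °C, while that of all tested genes is 0.018 and −0.0047.

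The 7 hnRNPs of the A/B and D families are abundant proteins that coat pre-mRNA and, in the D family, bind AU-rich elements of unstable mRNAs. Of these, 4 fell at 50 °C against nanoparticles alone, none rose, and all 7 had a log2 fold change below 0, with a median of −0.48. HNRNPDL, a relative of the AU-rich element binding protein AUF1, had 377, 395, 374 and 347 CPM at 50 °C, against 678, 733, 568 and 515 CPM with nanoparticles alone. All 4 samples at 50 °C lay below all 4 with nanoparticles alone, and the log2 fold change was −0.74 ± 0.12 (SE, n = 4 each; adjusted p = 3.5e-05). It had 511, 469, 423 and 438 CPM at 46 °C, again without overlap with nanoparticles alone, a change of −0.44 ± 0.12 (adjusted p = 0.0473). Its level at 54 °C was 517, 533, 489.5 and 442 CPM, which overlapped nanoparticles alone. Untreated cells had 594, 630, 504 and 474 CPM, which overlapped 46 °C but not 50 °C, and nanoparticles alone held the highest mean of the 5 groups. The fall at 50 °C passed without any 1 of the 8 libraries, while the fall at 46 °C passed only without replicate 3 or replicate 4 of nanoparticles alone and was lost in the other 6 omissions (highest adjusted p = 0.259).

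HNRNPD, which encodes AUF1 itself, had 338, 337, 341 and 294 CPM at 50 °C, against 421, 461, 478 and 463 CPM with nanoparticles alone. The groups did not overlap, and the change was −0.48 ± 0.11 (adjusted p = 0.0122). Without replicate 4 at 50 °C, the lowest of its group, the adjusted p was 0.0611. HNRNPD had 381, 358, 392 and 391 CPM at 46 °C and 424, 445, 422 and 436 CPM at 54 °C. The 46 °C samples also lay below all samples with nanoparticles alone, at −0.26 ± 0.11 (adjusted p = 0.318), which did not pass the test. Untreated cells had 399, 334, 373 and 403 CPM, which overlapped 50 °C, and nanoparticles alone held the highest mean of the 5 groups.

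HNRNPA2B1, a carrier of RNA to cell processes and a reader of methylated RNA, had 309.5, 386, 298 and 312 CPM at 50 °C, against 441, 509, 424 and 470.2 CPM with nanoparticles alone. Replicate 2 was the highest at 50 °C, and the 2 groups still did not overlap. The change was −0.50 ± 0.12 (adjusted p = 0.0183). HNRNPA2B1 had 523, 496, 381 and 513 CPM in untreated cells, which overlapped 50 °C. At 46 °C it had 506, 436, 431 and 574 CPM, a difference from nanoparticles alone of 0.077 ± 0.12 (adjusted p = 0.894), and at 54 °C 555, 476, 492 and 521 CPM. It was lower at 50 °C than at 46 °C, with a log2 fold change of −0.58 ± 0.12 (adjusted p = 0.00284), and higher at 54 °C than at 50 °C, with 0.65 ± 0.12 (adjusted p = 0.00123), both without overlap. Both of these passed without any 1 of their 8 libraries. The fall against nanoparticles alone did not pass without replicate 1, 3 or 4 at 50 °C or replicate 2 or 4 of nanoparticles alone (highest adjusted p = 0.094).

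HNRNPA3, a close relative of HNRNPA2B1, had 166, 171, 181 and 175 CPM at 50 °C, against 214, 255, 283 and 235 CPM with nanoparticles alone. The 50 °C samples lay close together and below the other group, at −0.51 ± 0.13 (adjusted p = 0.0392). At 54 °C the level was 266, 249.6, 288 and 243 CPM, higher than at 50 °C by 0.60 ± 0.13 (adjusted p = 0.0265). Each of these calls was lost in 7 of 8 omissions of 1 library, with highest adjusted p of 0.165 and 0.169; the omissions that kept them were of nanoparticles alone replicate 1 and of 54 °C replicate 4. HNRNPA1, the most studied member of the family and a component of stress granules, had 441 ± 58.3 CPM at 50 °C and 474 ± 55.4 CPM with nanoparticles alone (SD, n = 4 each), a difference of −0.10 ± 0.13 with a 95% interval of −0.36 to 0.15. HNRNPA0 differed by −0.26 ± 0.14 and HNRNPAB by −0.31 ± 0.13, and neither passed the test (adjusted p = 0.518 and 0.343).

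**Figure D3:**
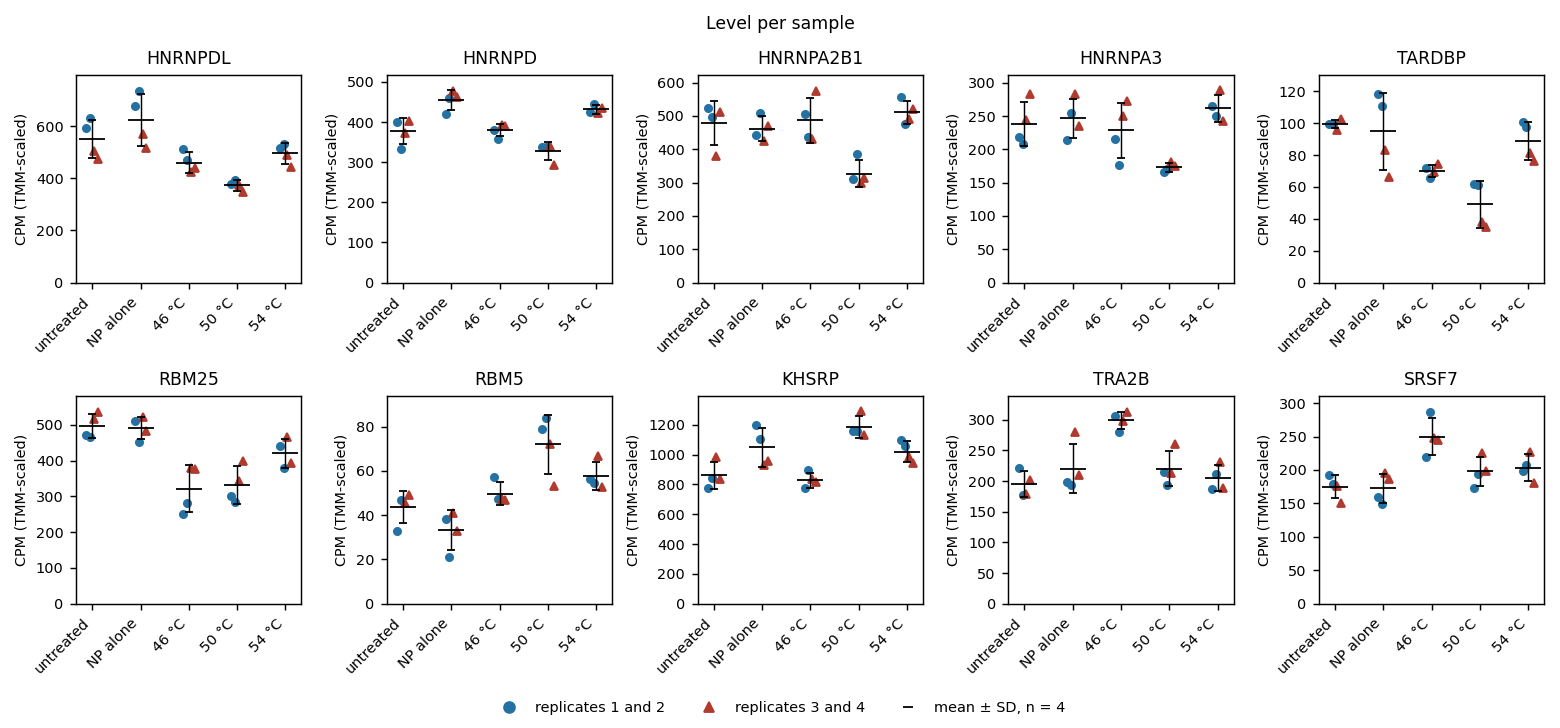
CPM per sample (vertical axis, from 0) of 10 members in the 5 groups (horizontal axis), with circles for replicates 1 and 2, triangles for replicates 3 and 4, and bars for the mean ± SD of 4 samples. HNRNPDL, HNRNPD, HNRNPA2B1, HNRNPA3 and TARDBP have their lowest mean at 50 °C and RBM5 its highest.

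The other 12 hnRNPs include polyuridine and poly(C) binders, the F/H group that binds G-runs, and HNRNPU, a nuclear scaffold protein. At 50 °C against nanoparticles alone SYNCRIP and HNRNPH3 fell, none rose, and 9 of 12 had an unadjusted p under 0.05, as had 11.4% of all tested genes, with a median log2 fold change of −0.31. SYNCRIP, which binds cytoplasmic mRNAs and affects their stability and translation, had 216, 244, 216 and 252 CPM at 50 °C, against 300.3, 298, 334 and 321 CPM with nanoparticles alone. The groups did not overlap, and the change was −0.43 ± 0.12 (adjusted p = 0.0478), which was lost without any 1 of the 8 libraries (highest adjusted p = 0.157). Its paralog HNRNPR had 185, 165, 174 and 132 CPM at 50 °C, against 201, 261, 190.2 and 186 CPM with nanoparticles alone. The samples did not overlap either, and the difference of −0.36 ± 0.15 (adjusted p = 0.297) did not pass.

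HNRNPH3 had 90.7, 77.2, 89.3 and 102 CPM at 50 °C, against 144, 149.8, 126 and 123 CPM with nanoparticles alone. No sample overlapped, and the change of −0.60 ± 0.16 (adjusted p = 0.0498) was lost in 7 of 8 omissions of 1 library, the exception being 50 °C replicate 4 (highest adjusted p = 0.167). Untreated cells had 114, 92.1, 149 and 153 CPM, which overlapped 50 °C, and nanoparticles alone held the highest mean of the 5 groups. HNRNPH2, from the same G-run binding group, had 10.5, 26.6, 20.9 and 29.5 CPM at 50 °C, against 36.4, 58.2, 44.3 and 31.4 CPM with nanoparticles alone. Its groups did not overlap either, and its difference of −0.96 ± 0.27 (adjusted p = 0.0523) did not pass, though it did with DESeq2 (adjusted p = 0.0288). HNRNPH1, its paralog, had 242, 267, 282 and 289.6 CPM at 50 °C, against 299, 308, 329 and 382 CPM with nanoparticles alone, a difference of −0.28 ± 0.13 (adjusted p = 0.363). All 4 samples of HNRNPH1 at 50 °C lay below all 4 with nanoparticles alone. HNRNPU differed by −0.33 ± 0.12 (adjusted p = 0.17) at 50 °C, where its level was 449 ± 63.7 CPM, against 566 ± 62.3 CPM with nanoparticles alone (SD, n = 4 each).

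HNRNPUL1, a DNA damage response relative of HNRNPU, moved the other way between laser temperatures. It had 408, 422, 400.4 and 362 CPM at 50 °C, against 315, 289.7, 308 and 263 CPM at 46 °C. All samples at 50 °C were higher, with a change of 0.44 ± 0.12 (adjusted p = 0.0418), which was lost in 7 of 8 omissions of 1 library, the exception being 50 °C replicate 4 (highest adjusted p = 0.14). Against nanoparticles alone, with 301, 278, 303 and 359.9 CPM, the 50 °C difference of 0.36 ± 0.12 (adjusted p = 0.127) did not pass, though it did with DESeq2 (adjusted p = 0.0246). HNRNPC, which binds uridine tracts and guards against inclusion of Alu exons, had 840.5 ± 75.4 CPM at 46 °C and 677 ± 29.2 CPM with nanoparticles alone, without overlap, a difference of 0.31 ± 0.10 (adjusted p = 0.153) that did not pass, though it did with DESeq2 (adjusted p = 0.029). The remaining HNRNPF, HNRNPK, HNRNPL and HNRNPM, binders of G-runs, C-rich, CA-rich and GU-rich RNA, were not called in any of the 7 comparisons. DESeq2 called HNRNPM lower at 50 °C than at 46 °C (−0.36, adjusted p = 0.0362) and higher at 54 °C than at 50 °C (0.47, adjusted p = 0.0066). Scaling by library totals called HNRNPM and HNRNPK lower at 50 °C than with nanoparticles alone. With that scaling edgeR also called HNRNPU, HNRNPH2 and ELAVL1 lower there (adjusted p = 0.0248, 0.0161 and 0.0373).

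SR proteins and TRA2 relatives, 13 members with SON, bind exonic enhancers through an arginine- and serine-rich tail. At 50 °C against nanoparticles alone none of the 13 was called by edgeR or DESeq2. An unadjusted p under 0.05 was found for 2 of them, beside 11.4% of all tested genes. Their log2 fold changes ran from −0.39 to 0.29 with a median of −0.00084. No difference between this class and the hnRNPs was tested. SRSF7, one of the SR proteins found in nuclear stress bodies, had 220.1, 287, 247 and 244 CPM at 46 °C, against 159, 149.8, 195 and 186 CPM with nanoparticles alone. Every 46 °C sample was higher, with a change of 0.53 ± 0.13 (adjusted p = 0.0286). That call was lost without replicate 2, 3 or 4 at 46 °C, or without replicate 1 or 2 of nanoparticles alone (highest adjusted p = 0.17). SRSF7 had 173, 194, 226 and 199 CPM at 50 °C and 198, 208, 228 and 179.8 CPM at 54 °C.

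TRA2B, an activator of exons that also controls its own mRNA through a poison exon, had 306, 279.6, 299 and 312 CPM at 46 °C, against 198, 193, 279.5 and 211 CPM with nanoparticles alone. The groups nearly touched, with 279.55 CPM in the lowest 46 °C sample and 279.54 CPM in the highest with nanoparticles alone. The difference of 0.44 ± 0.13 (adjusted p = 0.112) did not pass, though it did with DESeq2 (adjusted p = 0.0366). At 54 °C it had 188, 211, 232 and 188 CPM, lower than at 46 °C without overlap, with a log2 fold change of −0.55 ± 0.13 (adjusted p = 0.0282). That call was lost without replicate 1, 3 or 4 at 46 °C or replicate 1, 2 or 4 at 54 °C (highest adjusted p = 0.146). TRA2A had 84.7 ± 15.2 CPM at 46 °C and 67.4 ± 7.77 CPM with nanoparticles alone, a difference of 0.33 ± 0.18 (adjusted p = 0.511).

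SRSF1, the founding SR protein, had 221 ± 46.8 CPM with nanoparticles alone, 198 ± 50.9 CPM at 46 °C, 168 ± 13.7 CPM at 50 °C and 170.4 ± 31.2 CPM at 54 °C (SD, n = 4 each). Its difference at 50 °C was −0.39 ± 0.16 (adjusted p = 0.268). SRSF9 differed from nanoparticles alone by −0.064 ± 0.14, −0.25 ± 0.14 and −0.092 ± 0.14 at 46, 50 and 54 °C, and SRSF10, the heat-dependent repressor, by −0.22 ± 0.14, −0.073 ± 0.14 and −0.11 ± 0.14. The 95% interval for SRSF10 at 46 °C ran from −0.51 to 0.07. SRSF1, SRSF9 and SRSF10 were not called in any of the 7 comparisons. SON, the core of nuclear speckles, had 551 ± 28.5 CPM at 54 °C and 426 ± 35.1 CPM at 46 °C without overlap, a difference of 0.37 ± 0.12 (adjusted p = 0.181). The other members, SRSF2, SRSF3, SRSF4, SRSF5, SRSF6 and SRSF11, were not called in any of the 7 comparisons either.

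TARDBP, which encodes TDP-43, a repressor of cryptic exons, fell at 50 °C. It had 62.1, 61.1, 38 and 35.1 CPM at 50 °C, against 118, 111, 83.3 and 66.6 CPM with nanoparticles alone. All 50 °C samples were lower, though replicates 3 and 4 were the lowest in both groups, and the change was −0.95 ± 0.19 (adjusted p = 0.00191). It had 71.8, 65.6, 69.3 and 74.4 CPM at 46 °C, an intermediate level that differed from nanoparticles alone by −0.43 ± 0.19 (adjusted p = 0.335). At 54 °C it had 101, 97.5, 81.3 and 76.4 CPM, higher than at 50 °C by 0.86 ± 0.19 (adjusted p = 0.017). The fall at 50 °C passed without any 1 of the 8 libraries, whereas the step to 54 °C did not pass without replicate 3 or 4 at 50 °C or replicate 1 or 2 at 54 °C (highest adjusted p = 0.199).

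EWSR1 and TAF15, FET family proteins that join transcription to splicing, differed at 50 °C from nanoparticles alone by −0.18 ± 0.16 and −0.45 ± 0.19, and neither passed (adjusted p = 0.75 and 0.306). NONO and SFPQ, which build paraspeckles on the NEAT1 RNA, were not called in any of the 7 comparisons. NONO had 175 ± 30 CPM with nanoparticles alone, 177 ± 1.12 CPM at 46 °C, 184 ± 15.4 CPM at 50 °C and 206 ± 14.2 CPM at 54 °C (SD, n = 4 each). SFPQ had 527 ± 45.6 CPM with nanoparticles alone and 569 ± 60.1, 483 ± 39.4 and 524 ± 63.5 CPM at 46, 50 and 54 °C. At 54 °C, where NEAT1 had its highest level, the difference from nanoparticles alone was 0.24 ± 0.14 for NONO and −0.0081 ± 0.12 for SFPQ (adjusted p = 0.925 and 0.999).

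Of the 5 RBM proteins, RBM25 and RBM5 moved in opposite directions. RBM25, a splicing regulator of apoptosis genes that works with the U1 particle, had 250.2, 281, 379 and 376 CPM at 46 °C and 300.3, 284, 343 and 399.9 CPM at 50 °C, against 511, 451, 520.5 and 482 CPM with nanoparticles alone. Neither heated group overlapped nanoparticles alone, and replicates 1 and 2 were the lowest in both. The changes were −0.61 ± 0.13 (adjusted p = 0.00316) at 46 °C and −0.57 ± 0.13 (adjusted p = 0.00864) at 50 °C. Without replicate 1 at 46 °C the adjusted p was 0.0508, and at 50 °C it reached 0.0611 without replicate 1 or 2. At 54 °C RBM25 had 441, 379.6, 466 and 393 CPM, which overlapped nanoparticles alone.

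RBM5, a splicing factor that acts on mRNAs of cell death receptors, had 78.9, 83.9, 72.2 and 53.3 CPM at 50 °C, against 38.4, 21, 41.1 and 32.7 CPM with nanoparticles alone. Every sample at 50 °C was higher, and the change of 1.12 ± 0.22 (adjusted p = 0.00123) passed without any 1 of the 8 libraries. It had 57.3, 47.1, 47.4 and 46.9 CPM at 46 °C and 56.6, 54.5, 66.7 and 52.9 CPM at 54 °C, in both cases above every sample with nanoparticles alone. Those differences, 0.58 ± 0.22 (adjusted p = 0.233) and 0.80 ± 0.21 (adjusted p = 0.165), did not pass. Untreated cells had 32.9, 46.7, 45.5 and 49.2 CPM, above nanoparticles alone by mean, so nanoparticles alone held the lowest mean of the 5 groups. RBM39, RBM10 and RBMX were not called in any of the 7 comparisons; RBM39, the target of sulfonamide degraders, had 434 ± 20.5 CPM with nanoparticles alone and 412 ± 37, 392 ± 15 and 419 ± 24.6 CPM at 46, 50 and 54 °C.

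KHSRP, which binds AU-rich elements and directs mRNA decay, had 1158, 1157, 1289.7 and 1130.3 CPM at 50 °C, against 772, 894, 834 and 815 CPM at 46 °C. All 50 °C samples were higher, and the change of 0.51 ± 0.10 (adjusted p = 0.00137) passed without any 1 of the 8 libraries. Nanoparticles alone had 1201, 1105, 929 and 954 CPM, and the difference from this group was −0.34 ± 0.10 (adjusted p = 0.112) at 46 °C and 0.18 ± 0.10 (adjusted p = 0.544) at 50 °C, neither of which passed, though DESeq2 called the 46 °C difference (adjusted p = 0.0379). PTBP1, a repressor of neuronal exons, KHDRBS1, a signal-regulated splicing factor, and ELAVL1, a stabiliser of AU-rich mRNAs, were not called in any of the 7 comparisons. ELAVL1 had 73.4, 69.7, 61.7 and 78 CPM at 50 °C, against 112, 87, 109.7 and 92.1 CPM with nanoparticles alone, without overlap, at −0.50 ± 0.17 (adjusted p = 0.153).

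Nanoparticles alone were compared with untreated cells, with no laser in either group. A 4 h step in 200 µl of medium is given for nanoparticles alone and not for untreated cells. Any effect of that step cannot be told apart from one of the particles. No member was called by edgeR's quasi-likelihood test, as for all tested genes, of which 0% were called higher and 0% lower, and 2 members and 479 of all tested genes had an unadjusted p under 0.05. DESeq2 called 0 members in this comparison. The 3 members with the smallest p were KHSRP, at 0.29 ± 0.10, HNRNPD, at 0.27 ± 0.11, and RBM5, at −0.39 ± 0.22 (adjusted p = 1 for each). KHSRP had 1201, 1105, 929 and 954 CPM with nanoparticles alone and 773, 843, 985 and 837 CPM in untreated cells, which overlapped. HNRNPD had higher values in all 4 samples with nanoparticles alone than in any untreated sample. The median of the 46 members was 0.057, beside −0.0038 for all tested genes.

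Summed over the class, the 7 hnRNPs of the A/B and D families had 2596 ± 52.6 CPM in untreated cells, 2797 ± 124 CPM with nanoparticles alone, 2434 ± 209.9 CPM at 46 °C, 2079 ± 54.2 CPM at 50 °C and 2718 ± 111 CPM at 54 °C (SD, n = 4 each). The 4 samples at 50 °C were the lowest of the 20. The 12 other hnRNPs had 3703 ± 109 CPM at 50 °C and 4154 ± 164 CPM with nanoparticles alone, and the 13 SR and TRA2 genes had 2752 ± 125 CPM at 50 °C and 2752 ± 282 CPM with nanoparticles alone. All 46 members together held 1.35% ± 0.114 of the counts in untreated cells and 1.4% ± 0.0398 with nanoparticles alone. Under the laser their share was 1.37% ± 0.0881 at 46 °C, 1.16% ± 0.0220 at 50 °C and 1.37% ± 0.0407 at 54 °C. These shares are of unscaled counts. Summed as TMM-scaled CPM, the 46 members had 13258 ± 672 in untreated cells and 13843 ± 278 with nanoparticles alone. On that scale they had 13040 ± 769 at 46 °C, 12523 ± 347 at 50 °C and 13830 ± 325 at 54 °C. These sums carry no test.

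**Figure D4:**
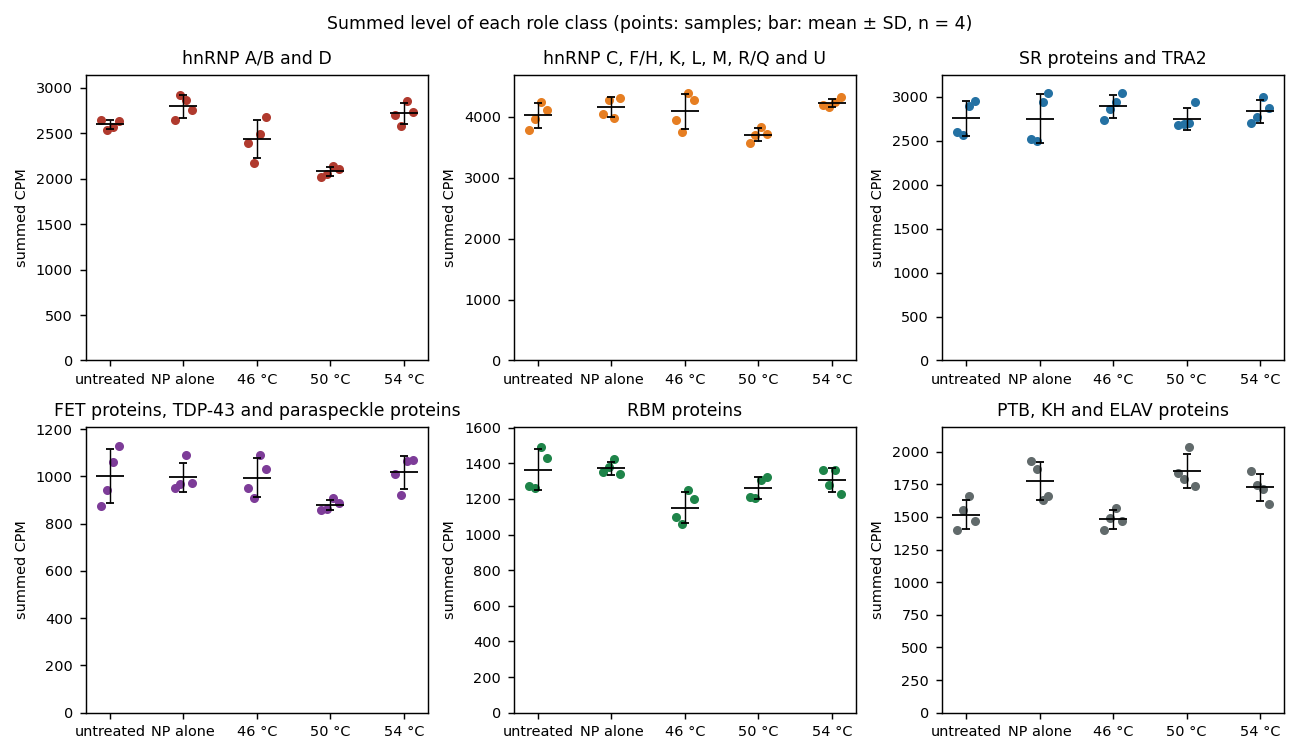
Summed CPM per sample (vertical axis, from 0) of the 6 role classes in the 5 groups (horizontal axis), with points for samples and bars for the mean ± SD of 4 samples. The A/B and D class averages 2079 ± 54.2 CPM at 50 °C and 2797 ± 124 CPM with nanoparticles alone, and the SR and TRA2 class 2752 ± 125 CPM at 50 °C and 2752 ± 282 CPM with nanoparticles alone.

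Replicates 3 and 4 as a set were compared with replicates 1 and 2, a division seen in the data and given by no label. It called 8.82% of tested genes and 13 members, of which 11 were higher in replicates 3 and 4. The division was picked from these same counts, so these calls only describe it and are no separate evidence for it. HNRNPDL and TARDBP were lower there, with log2 differences of −0.23 and −0.32, and RBM25 was among the higher, at 0.23. Each comparison was repeated within both pairs, with 2 samples a group, and values given in pairs are for replicates 1 and 2 and then for replicates 3 and 4. At 50 °C against nanoparticles alone 9 members were called within replicates 1 and 2, 7 of them lower, and 3 within replicates 3 and 4, all lower, where 1.75% and 0.504% of all genes tested in those fits were called. HNRNPDL had −0.87 (adjusted p = 7.36e-07) within replicates 1 and 2 and −0.59 (adjusted p = 0.0144) within replicates 3 and 4. TARDBP had −0.90 (adjusted p = 0.0067) and −1.04 (adjusted p = 0.0422). Both passed in each pair. RBM5 had 1.46 (adjusted p = 0.00181) within replicates 1 and 2 and 0.77 (adjusted p = 0.417) within replicates 3 and 4, and RBM25 had −0.72 (adjusted p = 0.000242) and −0.43 (adjusted p = 0.195). HNRNPA2B1 had −0.45 (adjusted p = 0.0428) and −0.55 (adjusted p = 0.0753), HNRNPD −0.38 (adjusted p = 0.0999) and −0.57 (adjusted p = 0.0309), and HNRNPA3 −0.48 (adjusted p = 0.0848) and −0.55 (adjusted p = 0.152). SYNCRIP had −0.38 (adjusted p = 0.168) and −0.49 (adjusted p = 0.17), and HNRNPH3 −0.81 (adjusted p = 0.00838) and −0.38 (adjusted p = 0.625). All 9 members called at 50 °C had the same sign in both pairs. They were picked by their call over the same samples, so matching signs carry no separate weight.

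At 46 °C against nanoparticles alone 9 members were called within replicates 1 and 2 and 0 within replicates 3 and 4, where 2.1% and 0.529% of all genes tested in those fits were called. RBM25 had −0.86 (adjusted p = 7.95e-06) within replicates 1 and 2 and −0.41 (adjusted p = 0.296) within replicates 3 and 4, SRSF7 had 0.71 (adjusted p = 0.00367) and 0.36 (adjusted p = 0.626), and HNRNPDL had −0.53 (adjusted p = 0.00287) and −0.33 (adjusted p = 0.479). All 3 had larger differences in replicates 1 and 2. Between 50 and 46 °C, 4 and 3 members were called in the 2 pairs (1.9% and 0.62% of all genes), KHSRP in both, at 0.48 (adjusted p = 0.00319) and 0.55 (adjusted p = 0.00643). HNRNPA2B1 had −0.44 (adjusted p = 0.0507) and −0.72 (adjusted p = 0.00426), and HNRNPUL1 0.46 (adjusted p = 0.0366) and 0.42 (adjusted p = 0.315). These 3 members had the same sign in both pairs, which again follows largely from how they were picked. Between 54 and 50 °C, 4 and 2 were called (0.306% and 0.182% of all genes), HNRNPA2B1 in both, at 0.57 (adjusted p = 0.0168) and 0.74 (adjusted p = 0.00681), with TARDBP at 0.69 (adjusted p = 0.129) and 1.12 (adjusted p = 0.0336) and HNRNPA3 at 0.61 (adjusted p = 0.0429) and 0.59 (adjusted p = 0.204). Between 54 and 46 °C, 5 and 0 were called (1.73% and 0.355% of all genes), with TRA2B at −0.55 (adjusted p = 0.0289) and −0.54 (adjusted p = 0.251). No member was called at 54 °C against nanoparticles alone in either pair (0.121% and 0.182% of all genes), and KHSRP alone, within replicates 1 and 2, for nanoparticles alone against untreated cells (0.0322% and 0.0165% of all genes).

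**Figure D5:**
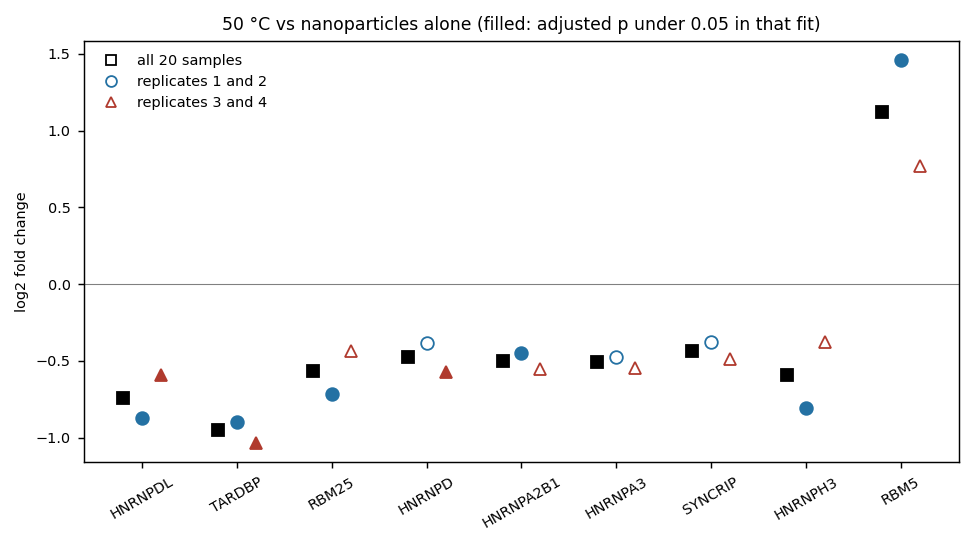
Log2 fold change at 50 °C against nanoparticles alone (vertical axis) of the 9 members called over all samples (horizontal axis), from the fit of all 20 samples (squares), of replicates 1 and 2 (circles) and of replicates 3 and 4 (triangles), filled for an adjusted p under 0.05 in that fit. The signs are the same in all 3 fits, which share samples, for members picked by their call over all samples. RBM5 is 1.46 in replicates 1 and 2 and 0.77 in replicates 3 and 4.

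Other parts of the splicing machinery were read from 6 lists. Of 8 kinases that phosphorylate SR proteins, none was called by edgeR's quasi-likelihood test in any of the 7 comparisons. At most 3 had an unadjusted p under 0.05, at 46 and at 50 °C against nanoparticles alone, beside 11% and 11.4% of all tested genes. CLK1 and CLK4 differed among the 5 groups (adjusted p = 0.0193 and 0.0219). CLK1 had 29.7 ± 3.16 CPM at 50 °C and 51.6 ± 9.27 CPM with nanoparticles alone, and CLK4 had 6.25 ± 1.46 CPM at 46 °C and 15.2 ± 4.02 CPM with nanoparticles alone. Of 15 U2 and 3′ splice site factors none was called in the 7 comparisons. At most 5 had an unadjusted p under 0.05, at 46 °C against nanoparticles alone, beside 11% of all tested genes. Among 13 U1 and Sm proteins, SNRPE and SNRPG, subunits of the Sm ring, were lower at 50 °C than at 46 °C, with log2 fold changes of −0.57 ± 0.12 and −0.81 ± 0.15 (adjusted p = 0.00377 and 0.00147). Among 19 factors of the tri-snRNP and the catalytic steps, PRPF8, the core of the spliceosome, had 117 ± 3.36 CPM at 46 °C and 182 ± 17.1 CPM with nanoparticles alone, a log2 fold change of −0.64 ± 0.14 (adjusted p = 0.00621). PRPF8 was higher at 50 and 54 °C than at 46 °C, by 0.75 ± 0.14 (adjusted p = 0.000535) and 0.72 ± 0.14 (adjusted p = 0.00125). SRRM2, a nuclear speckle scaffold of the same list, had 413 ± 43.4 CPM at 50 °C and 287 ± 45.1 CPM with nanoparticles alone, a log2 fold change of 0.52 ± 0.14 (adjusted p = 0.0462).

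Of 10 factors of nonsense-mediated decay none was called in the 7 comparisons. At most 3 had an unadjusted p under 0.05, at 46 °C against nanoparticles alone and at 54 °C against 46 °C, beside 11% and 8.56% of all tested genes. UPF3B differed among the 5 groups (adjusted p = 0.0203), with 38.6 ± 6.8 CPM at 46 °C and 60.3 ± 6.52 CPM with nanoparticles alone. Of 8 partners of nuclear stress bodies and heat-repressed splicing, PPP1CC, a phosphatase subunit, fell at 50 °C against nanoparticles alone by 0.65 ± 0.17 on the log2 scale (adjusted p = 0.0303), where it had 84.8 ± 18.1 CPM, against 133 ± 16.7 CPM with nanoparticles alone. The other 7 were not called in any of the 7 comparisons.

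By GENCODE v29 on GRCh38, the members with the clearest changes differ in structure. HNRNPDL spans bases 82422564 to 82430408 of chromosome 4 on the minus strand, and 9 of its 10 annotated transcripts carry an intron in the 3′ untranslated region. TARDBP spans bases 11012344 to 11026420 of chromosome 1 on the plus strand, and 13 of its 32 transcripts do. RBM25 spans bases 73058436 to 73123898 of chromosome 14, RBM5 bases 50088908 to 50119021 of chromosome 3, and HNRNPA2B1 bases 26173057 to 26201529 of chromosome 7. At least 1 such intron was annotated in 6 of the 8 members that fell at 50 °C (75%) and in 29 of the other 38 (76.3%). At least 1 transcript marked for nonsense-mediated decay was annotated in 33 of the 46 members (71.7%), against 35.6% of all protein-coding genes, expressed or not. The members also had more annotated transcripts, with a median of 12 against 6. Among the 8 members that fell at 50 °C the share was 62.5%, and among the other 38 it was 73.7%. RBM5 overlaps RBM6 on its own strand and RBM5-AS1 and SEMA3F-AS1 on the other. HNRNPA2B1 overlaps CBX3 and NFE2L3 on the other strand, and HNRNPH3 overlaps PBLD and RUFY2, also on the other strand. RBM25 overlaps a pair of long noncoding RNAs and HNRNPUL1 overlaps TGFB1, both on the other strand. HNRNPH2 overlaps the read-through gene RPL36A-HNRNPH2, and TARDBP overlaps AL109811.4 on its own strand. The strand setting of the counting is not given in the sources used here, so counts of overlapping genes are uncertain. Similar copies have rows of their own in the table. RBMXL1, a retrocopy of RBMX, held 2966 counts over all samples, beside 29402 for RBMX, while HNRNPA1P48 held 745, HNRNPA1L2 103 and HNRNPCL2 13. Reads shared with such copies cannot be traced, and the level of RBMX is uncertain for that reason.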

How the data were processed

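Gene-level estimated counts, as deposited, cover 20 libraries of 3′ mRNA sequencing, 4 per group; STAR, Salmon and GRCh38 are named in the submitters' processing notes, and neither the annotation nor the strand setting is given in those notes. Estimated counts were rounded to whole numbers. Genes were filtered with edgeR's filterByExpr (count minimum 10, total minimum 15), scaled by TMM and fitted over all 20 samples as 5 group means with edgeR 4.0.16 in R 4.3.3 (robust quasi-likelihood), with Benjamini-Hochberg adjustment over 12149 genes and calls at an adjusted p under 0.05. This test was checked on simulated counts. CPM are TMM-scaled. Log2 values were computed from the deposited counts, and folds are of the group named first over the other. Alternatives were DESeq2 1.42.0, limma 3.58.1 voom, DESeq2 size factors, library totals, other filters, a fit of the compared groups only, a replicate block, within-pair fits and omission of each library.

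Members, role classes and lists were chosen with earlier results of these data known. Named with values are members called in each comparison or among the 5 groups (the 3 with the smallest p where none was called), 12 fixed members, 2 paralog pairs, called genes of each list and 4 heat check genes; further members without a call were added where their groups did not overlap or their class was described. GENCODE 29 gave the coordinates of genes and RefSeq the promoters. Totals of 2401180 to 7710977 counts bear on the counting error, and low genes are less certain. Replicate libraries correlated at 0.891 to 0.942 and no 2 were alike within sampling noise.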

Additional observations from a re-analysis of the deposited data

Results flagged for a closer look

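Of 265 groups of 4 values examined, 9 had 1 sample far from the other 3 by Dixon's test, where chance flags about 1 in 20 groups. At 46 °C, replicate 4 was high for HNRNPA0, at 173 CPM beside 129 to 136 CPM, for HNRNPK, at 776 CPM beside 689 to 701 CPM, and for SRSF4, at 84.4 CPM beside 62.1 to 65.9 CPM. Also at 46 °C, RBM5 had 57.3 CPM in replicate 1 beside 46.9 to 47.4 CPM, and KHDRBS1 had 353 CPM in replicate 3 beside 273 to 275 CPM. At 50 °C, HNRNPA2B1 had 386 CPM in replicate 2 beside 298 to 312 CPM, and HNRNPD had 294 CPM in replicate 4 beside 337 to 341 CPM. The summed SR and TRA2 genes had 2939 CPM in replicate 4 at 50 °C beside 2679 to 2704 CPM. The summed FET, TDP-43 and paraspeckle genes had 1089 CPM in replicate 3 of nanoparticles alone beside 952 to 972 CPM.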

How the results depend on the processing

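Direction was followed only for member values already called, and no called fold change reversed under any alternative run. The test among the 5 groups has no direction, and the repeats reuse the same samples. Over all repeats of the 28 called member values 475 passed again and 128 did not. With scaling by library totals the members called, with the share of all tested genes in brackets, numbered 14 at 50 °C against nanoparticles alone (2.28%), 16 at 50 °C against 46 °C (3.46%), 8 at 54 °C against 50 °C (0.313%) and 16 among the 5 groups (3.88%). DESeq2 called 6 at 46 °C (2.1%) and 1 at 54 °C (0.296%) against nanoparticles alone, 6 at 50 °C against 46 °C (5.12%), 9 at 54 °C against 50 °C (1.2%) and 15 among the 5 groups (5.67%), with shares taken over the genes that DESeq2 gave an adjusted p. Same-numbered replicates correlated weakly across groups (0.022 to 0.066), and 9 of 20 libraries correlated best with their own number. No label pairs the samples, and this check cannot decide whether same-numbered samples share an effect. With a replicate block the calls were 7 at 46 °C against nanoparticles alone (2.21%), 7 at 50 °C against 46 °C (2.91%), 9 at 54 °C against 50 °C (0.56%), 3 at 54 °C against 46 °C (1.32%) and 16 among the 5 groups (5.18%). Within replicates 1 and 2 they were 1 for nanoparticles alone against untreated cells, 9 at 46 °C against nanoparticles alone, 5 at 54 °C against 46 °C and 16 among the 5 groups (4.55%), and within replicates 3 and 4 they were 0 at 46 °C and 3 at 50 °C against nanoparticles alone, 0 at 54 °C against 46 °C and 4 among the 5 groups (1.19%); these fits had 2 samples a group. Leaving out each library gave 0 to 0 members for nanoparticles alone against untreated cells, 1 to 4 at 46 °C, 4 to 7 at 50 °C and 0 to 0 at 54 °C against nanoparticles alone, 2 to 3 at 50 °C against 46 °C, 1 to 3 at 54 °C against 50 °C, 0 to 1 at 54 °C against 46 °C and 6 to 11 among the 5 groups. limma-voom called 6 members at 50 °C against nanoparticles alone, without HNRNPA3, SYNCRIP and HNRNPH3. By library totals the summed levels at 50 °C were 11668 CPM for all members, 1937 for the A/B and D class, 3451 for the other hnRNPs, 2564 for SR and TRA2, 819 for the FET and paraspeckle class and 1174 for the RBM class, and at 46 °C 3040.4 for SR and TRA2 and 1556 for the PTB, KH and ELAV class. The cause of these shifts was not tested.

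Group totals at 46 °C averaged 2872173 counts and those at 54 °C 6769582, so values at 46 °C carry more counting error. At 50 °C against nanoparticles alone the standard error on the log2 scale was 0.27 for HNRNPH2, 0.22 for RBM5 and 0.19 for TARDBP, against 0.12 for HNRNPDL. In the test among the 5 groups, TRA2B was lost in 2 of 20 omissions (highest adjusted p = 0.0695), HNRNPD in 10 (0.128) and HNRNPA3 in 9 (0.149), while the other 6 members called there passed in each omission.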
